A study of Mus musculus with 6 samples.

Results

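The HoxB cluster of the mouse, at chr11:96190000-96370000 of GRCm38, holds the 10 genes Hoxb1, Hoxb2, Hoxb3, Hoxb4, Hoxb5, Hoxb6, Hoxb7, Hoxb8, Hoxb9 and Hoxb13. Its CpGs were chosen on read coverage: a CpG was kept when it had 5 or more reads in all 6 libraries, which gave 657 CpGs of 1192344 in the whole series. CpG methylation was measured by reduced representation bisulfite sequencing (RRBS) in CD8+ T cells enriched from LNs (lymph nodes) of 13-week-old C57BL/6N mice. There were 2 libraries from WT mice (genotype label wt), 2 from hSTAT5B mice (hSTAT5B +/T) and 2 from hSTAT5BN642H mice (hSTAT5B N642H +/T). Both transgenes are human STAT5B sequences under the Vav1 promoter, which is active throughout the hematopoietic system and not in CD8+ T cells alone, on top of the endogenous mouse genes. Each transgene stood for 1 selected line. The hSTAT5BN642H mice carry the N642H variant found in leukemia and were diseased, and all mice shared the C57BL/6N background.

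HOX proteins are homeodomain transcription factors that set position along the body axis in the embryo. Several of the HoxB genes are also used in hematopoietic stem and progenitor cells and are shut down as lymphocytes mature. Each HoxB gene is small, with the DNA-binding homeobox in its second coding exon. Hox clusters are rich in CpG islands (CGIs), stretches dense in CpGs that usually carry little methylation and are often covered by Polycomb proteins when the gene is silent, whereas DNA methylation is another route to stable silencing.

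RRBS reads only the fragments next to MspI sites. The 180-kb window holds 3743 CpGs in the reference sequence, 1516 were read in any library, 915 in all 6, and 657 passed the coverage rule. Reads over these 657 CpGs summed to between 15730 and 27303 per library, with a median of 16 to 33 reads per CpG. The 50 CpGs just inside the rule, whose shallowest library had 5 reads, had a mean methylation level of 32.4%, and the 47 just outside it, with 4 reads, had 13.9%. All 10 members had measured CpGs, between 9 in Hoxb13 and 81 in Hoxb3. The level of a bin, CGI, exon or gene was the mean over its CpGs of methylated reads divided by all reads. Reads carried no molecular identifiers and neighbouring CpGs of a fragment share reads, so read totals overstate the number of independent molecules.

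5 stretches show what the measured DNA looks like. They were chosen as the low-methylated first exon of Hoxb4, the 3 regions of Hoxb3 with the most measured CpGs or the largest difference, and the methylated stretch between Hoxb6 and Hoxb5. Each is printed 5′ to 3′ on the plus strand of GRCm38, in lower case, with the measured CpGs in capitals. None holds untranslated exon sequence of a protein-coding transcript, and exons of noncoding genes were not checked. The Hoxb4 stretch, chr11:96318879-96319051, has 20 measured CpGs of 25. The Hoxb6-Hoxb5 stretch, chr11:96302404-96302466, has 5 of 6. The stretch from the Hoxb3 intron CGI, chr11:96332794-96333078, has 13 of 28, that from the Gm11536 start CGI, chr11:96341928-96342004, has 6 of 7, and that from the second coding exon of Hoxb3, chr11:96346041-96346205, has 14 of 18.
Hoxb4 first exon island: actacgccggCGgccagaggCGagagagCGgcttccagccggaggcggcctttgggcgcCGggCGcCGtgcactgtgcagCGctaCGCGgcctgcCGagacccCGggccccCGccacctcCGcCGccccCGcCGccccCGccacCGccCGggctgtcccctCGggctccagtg
Hoxb6-Hoxb5 bin: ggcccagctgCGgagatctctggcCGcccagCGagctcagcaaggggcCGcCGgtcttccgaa
Hoxb3 intron island: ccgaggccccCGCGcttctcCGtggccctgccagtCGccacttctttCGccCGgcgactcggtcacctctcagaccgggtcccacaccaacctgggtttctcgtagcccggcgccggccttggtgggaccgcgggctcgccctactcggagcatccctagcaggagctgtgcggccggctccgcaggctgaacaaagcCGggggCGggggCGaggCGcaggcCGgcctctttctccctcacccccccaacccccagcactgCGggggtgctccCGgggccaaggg
Gm11536 start island: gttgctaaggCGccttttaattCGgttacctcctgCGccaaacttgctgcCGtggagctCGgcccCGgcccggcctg
Hoxb3 second coding exon island: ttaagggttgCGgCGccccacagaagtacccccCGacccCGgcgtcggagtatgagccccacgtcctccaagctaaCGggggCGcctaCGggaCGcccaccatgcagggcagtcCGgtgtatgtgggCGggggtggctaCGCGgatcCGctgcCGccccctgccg

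Both kinds of stretch are dense in CpGs, yet their levels lay far apart. The 20 CpGs of the Hoxb4 stretch averaged 0.517% to 3.32% over the 6 libraries, and no CpG averaged more than 5.31%. The 13 CpGs of the Hoxb3 intron stretch averaged 47.2% to 85.7%, and the lowest of them averaged 45.7%. Every library therefore showed an unmethylated Hoxb4 first exon beside a methylated Hoxb3 intron.

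The cluster as a whole was less methylated than the genome. Of its 657 CpGs, 414 (63.0%) averaged under 20%, 182 (27.7%) lay between 20% and 80%, and 61 (9.28%) were over 80%, whereas 58.5% of all CpGs passing the rule in the genome were over 80%. The mean level of the cluster was 26.2%, that of the genome 62.4%. Within the cluster levels were lower where CpGs were denser, from 45.6% where up to 4 other CpGs lay within 100 bases to 17.9% where 15 or more did. CpGs in CGIs averaged 18.4%, those within 2 kb of one 27.1% and those farther away 34.9%.

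Of 61 bins of 1 kb with 3 or more CpGs, 35 averaged under 20%, 20 lay between 20% and 80%, and 6 were over 80%. The intergenic DNA between Hoxb13 and Hoxb9 held bins near full methylation. The bin at chr11:96248001-96249000, over the pseudogene Gm11539, measured 97.6% and 96.7% in WT, 100% and 92.6% in hSTAT5B, and 95.4% and 90.0% in hSTAT5BN642H. The bin at chr11:96235001-96236000 of the same interval, in contrast, stayed between 0% and 4.33% in all libraries. From Hoxb9 to Hoxb4 low bins prevailed around each gene, the long Hoxb3 locus was mostly methylated, and levels were low again over Hoxb2.

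**Figure D1:**
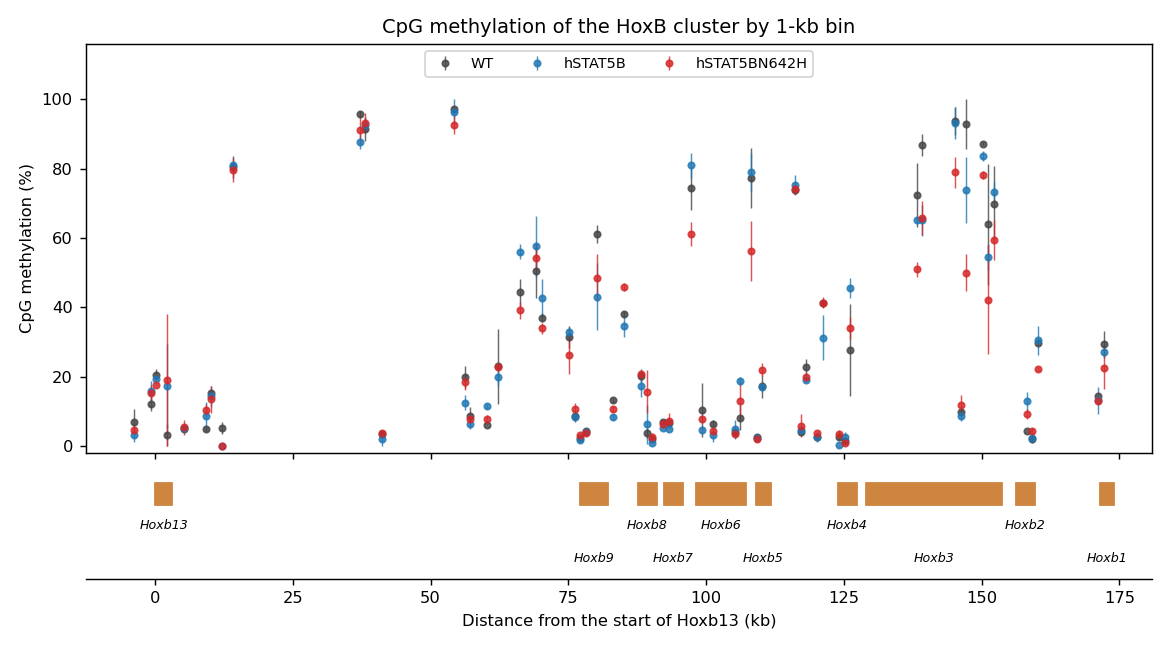
Mean CpG methylation (%) of each 1-kb bin of the HoxB cluster against distance from the start of Hoxb13 (kb), with gene bodies drawn to scale below. Points are genotype means of 2 libraries and bars span both libraries, and the Hoxb3 locus, Hoxb6-Hoxb5 and the interval before Hoxb9 hold most of the 26 bins at or over 20%.

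The first and second coding exons of a gene often differed. Among the 7 genes with 3 or more CpGs in both, the second exon, with the homeobox, was above the first in 5. Hoxb9, a posterior gene of the skeletal axis, had a median over the 6 libraries of 2.53% in its first coding exon and 54.1% in its second. The first exon never exceeded 2.91% in a library and the second never fell under 33.3%, so the exons did not overlap in any library. Hoxb4, a regulator of hematopoietic stem cell self-renewal, had 1.83% and 34.5%. Hoxb5, which marks long-term stem cells, had 3.12% and 29.2%, and Hoxb6 had 2.27% and 16.5%. Hoxb1, a hindbrain gene, had 12.7% and 27.0%.

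Hoxb3 and Hoxb2 went the other way. Hoxb2, which patterns the hindbrain, was low in both exons, with medians of 7.65% and 3.86%. Hoxb3, which acts with Hoxb4 in stem cells, was the only one of the 10 genes with a methylated first coding exon, at a median of 92.6% over 7 CpGs, and its second coding exon had a median of 61.8% over 25 CpGs. In Hoxb13, Hoxb8 and Hoxb7 the second coding exon had fewer than 3 measured CpGs. Their first coding exons had at most 20.8% in any library. The first exon of Hoxb13, 5 CpGs, measured 20.1% and 19.4% in WT, 20.5% and 20.8% in hSTAT5B, and 12.0% and 13.3% in hSTAT5BN642H. For that exon the hSTAT5BN642H libraries were below all others. The first exon of Hoxb8, a gene that holds myeloid progenitors undifferentiated when overexpressed, also 5 CpGs, measured 2.12% and 4.70% in WT, 11.6% and 1.27% in hSTAT5B, and 19.3% and 9.99% in hSTAT5BN642H. There hSTAT5BN642H was above WT without overlap, and hSTAT5B overlapped with both. These are means over CpGs. In the CGI of this exon, with 4 CpGs, the log2 ratio of reads differed from WT by 0.0571 ± 0.631 (SE), and the libraries overlapped by reads.

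**Figure D2:**
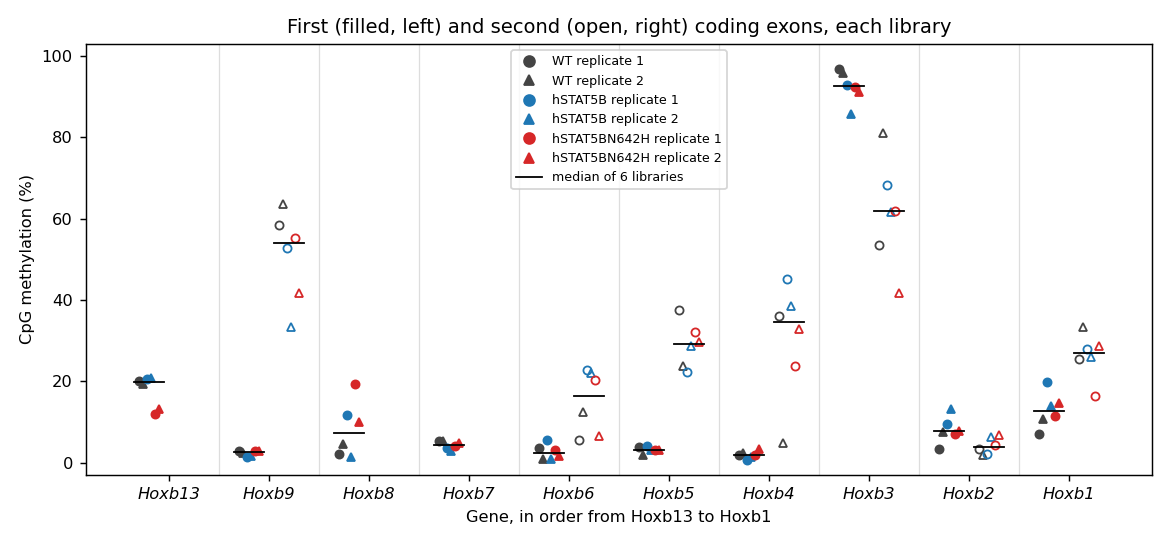
CpG methylation (%) of the first (filled) and second (open) coding exon of each HoxB gene, in chromosome order, 1 marker per library and a line at the median of 6 libraries. The first exons of 9 genes lie at or under 20.8%, that of Hoxb3 has a median of 92.6%, and the second exon lies above the first in 5 of 7 genes.

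Promoter windows, from 1000 bases before to 500 after the start, had 3 or more CpGs in 7 members, and those of Hoxb8, Hoxb4 and Hoxb2 had 0. The windows of Hoxb9, Hoxb6 and Hoxb5 averaged 1.69% to 3.14% in every genotype, that of Hoxb7 6.51% to 8.65%, and those of Hoxb13 and Hoxb1 12.8% to 17.8%. The Hoxb13 window, of 13 CpGs, overlaps the first coding exon of that gene but went the other way. There hSTAT5BN642H was above WT without overlap, at 16.2% and 19.4% beside 14.5% and 15.2%. Only the Hoxb3 window was methylated among the 7, at 71.0% ± 0.469 in WT, 73.9% ± 3.25 in hSTAT5B and 54.2% ± 5.56 in hSTAT5BN642H (SD, n = 2 each). It rests on 4 CpGs with 48 to 105 reads per library, all downstream of the start used and in the CGI at chr11:96344154-96344429. The Hoxb3 start used, at position 96343769 of chromosome 11, is one of several annotated for that gene. None of the 7 was called between genotypes in limma, where 0% of 12829 promoter windows were called in hSTAT5BN642H against WT, 0% in hSTAT5B against WT and 0% in hSTAT5BN642H against hSTAT5B.

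The first comparison asked whether the cluster as a whole differed between genotypes. The mean over 657 CpGs was 27.0% and 27.6% in WT, 26.6% and 26.6% in hSTAT5B, and 25.5% and 23.8% in hSTAT5BN642H. Genotypes did not overlap, with hSTAT5BN642H lowest and 2.65 percentage points below WT. That difference gave p = 0.333 in a 2-sided exact permutation test, the smallest p that 2 against 2 libraries allow. hSTAT5B was 0.673 points below WT and hSTAT5BN642H was 1.97 below hSTAT5B, each also with an exact permutation p = 0.333. The genome mean moved by 0.492 points downward in hSTAT5BN642H, from 62.5% to 62.0%.

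The difference was uneven along the cluster. Over the 469 CpGs from Hoxb9 to Hoxb1 the mean was 26.1% and 27.5% in WT, 25.3% and 25.2% in hSTAT5B, and 23.9% and 22.4% in hSTAT5BN642H. Over the 158 CpGs between Hoxb13 and Hoxb9 it was 32.3% and 31.0% in WT, 33.3% and 32.8% in hSTAT5B, and 32.1% and 30.2% in hSTAT5BN642H. WT and hSTAT5BN642H overlapped in the interval (exact permutation p = 0.667) and not in the stretch (p = 0.333 in the same exact test). Among the other Hox clusters, HoxA measured 30.3% in WT and 26.3% in hSTAT5BN642H, HoxC 12.3% and 13.5%, and HoxD 11.9% and 12.5%, and the difference between clusters was not tested.

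By the fit of limma on the log2 ratio of methylated to unmethylated reads over all 135303 bins of the genome, 0 of the 61 bins passed an adjusted p of 0.05 in any comparison, where 0% of all bins were called in each of the 3 comparisons. At an unadjusted p under 0.05, 5 of 61 bins (8.20%) passed in hSTAT5BN642H against WT, all of them lower, beside 7.14% of all bins in the genome, and the smallest adjusted p of limma in the cluster was 0.649. In hSTAT5B against WT 5 bins passed unadjusted, 4 lower and 1 higher, beside 6.26% of all bins, and in hSTAT5BN642H against hSTAT5B 2 (3.28%) passed, 1 in each direction, beside 7.16%. The 18 CGIs gave 0 calls as well, where 0% of 13403 CGIs were called in each comparison by limma.

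Bins whose libraries did not overlap between genotypes were counted beside the genome. Both hSTAT5BN642H libraries were below both WT libraries in 16 of 61 bins (26.2%), against 23.4% of all bins, and above them in 8 (13.1%), against 13.9%. hSTAT5B was below WT in 16 (26.2%), against 15%, and above in 5 (8.20%), against 17.4%. hSTAT5BN642H was below hSTAT5B in 14 (23.0%), against 24.9%, and above in 11 (18.0%), against 12.8%. The share of lower bins was thus near the background in both comparisons of hSTAT5BN642H and above it in hSTAT5B against WT. Each genotype enters 2 of the 3 comparisons, so they share libraries, and neighbouring bins can share a CGI.

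The bins differed by how methylated they were. Among the 20 bins between 20% and 80%, the median difference of hSTAT5BN642H from WT was -5.99 points, beside -0.326 over all such bins of the genome, and 8 were lower without overlap and 1 higher, where 22.6% and 20.3% of such bins in the genome were. Among the 35 bins under 20% the median was 0.505, beside 0.271. Of the 26 bins at 20% or more, hSTAT5BN642H replicate 2 was the lowest library in 10 and replicate 1 in 6, and WT replicate 2 was the highest in 9. These are counts over bins, which share libraries.

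**Figure D3:**
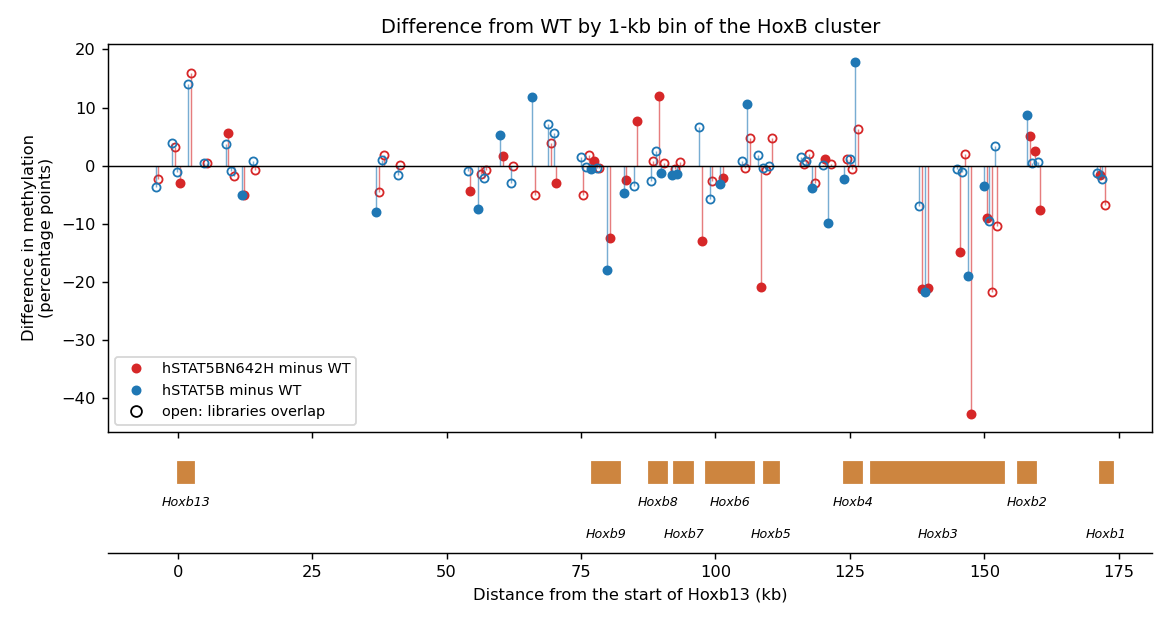
Difference in mean methylation from WT (percentage points) of each 1-kb bin against distance from the start of Hoxb13 (kb), for hSTAT5BN642H and hSTAT5B, with gene bodies below. Filled points are bins whose 2 libraries per genotype do not overlap with WT, and the bin at the start of Gm11536 inside Hoxb3 lies lowest, at -42.9 points.

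Hoxb3 carried most of the difference from WT. This gene was singled out after its values were seen, so the following is a description. Over its 81 CpGs the level was 65.6% and 77.0% in WT, 64.0% and 64.6% in hSTAT5B, and 58.9% and 51.3% in hSTAT5BN642H. WT was highest, hSTAT5BN642H lowest, and hSTAT5BN642H did not overlap with either other genotype. The mean difference from WT was -16.2 points, and -10.5 without WT replicate 2, which had the highest level. The other 576 CpGs of the cluster measured 21.6% and 20.7% in WT, 21.3% and 21.3% in hSTAT5B, and 20.8% and 19.9% in hSTAT5BN642H, a difference of -0.743 points.

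CpG by CpG, 67 of the 81 Hoxb3 CpGs had a lower mean in hSTAT5BN642H than in WT. Both libraries were below both WT libraries at 38 (46.9%) and above them at 2, where 12.6% of CpGs in the genome were lower without overlap. The remaining CpGs of the cluster had 73 of 576 (12.7%). In hSTAT5B against WT, Hoxb3 had 22 (27.2%), where the genome had 8.24%, and in hSTAT5BN642H against hSTAT5B 25 (30.9%), where it had 13.2%. CpGs of a fragment share reads, and most of these 81 lie in a few CGIs. The shares of the genome and of the remaining CpGs are over CpGs of all levels and were not matched to Hoxb3. Of the 81, 67 averaged over 50% and 9 under 20%.

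The other members were lower in level and differed less. Hoxb9 measured 7.93% in WT, 5.70% in hSTAT5B and 6.71% in hSTAT5BN642H over 48 CpGs, and Hoxb7, Hoxb6 and Hoxb8 lay between 4.24% and 9.86% in every genotype. Hoxb2 measured 2.96%, 7.23% and 6.63% in that order, with WT at 3.22% and 2.70% below all transgenic libraries. Hoxb5, Hoxb4 and Hoxb13 lay between 12.2% and 19.1%, and Hoxb1 measured 29.4%, 27.3% and 22.3%. With any 1 library left out, the difference of hSTAT5BN642H from WT ranged from -10.8 to -3.38 points in Hoxb1, its smallest size being without hSTAT5BN642H replicate 1 and -4.23 without WT replicate 2, beside -7.08 with all libraries. Its sign changed in Hoxb4 without WT replicate 2, in Hoxb13 and Hoxb7 without hSTAT5BN642H replicate 1, and in Hoxb6 without WT replicate 1 or hSTAT5BN642H replicate 2.

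Within Hoxb3, the CGI at chr11:96332762-96333268 lies in an intron. Over its 18 CpGs, with 332 to 510 reads per library, it measured 76.4% and 88.1% in WT, 66.2% and 73.6% in hSTAT5B, and 64.0% and 54.6% in hSTAT5BN642H. By these means over CpGs neither WT library overlapped with another genotype, and hSTAT5BN642H was lowest. In hSTAT5BN642H the log2 ratio differed by -1.62 ± 0.518 (SE) from WT, with an adjusted p of 0.847 in limma. In hSTAT5B it differed from WT by only 0.0247 ± 0.518 (SE), with an adjusted p of 0.997 in limma. By reads hSTAT5B overlapped with WT, at 307 of 419 and 347 of 429 methylated beside 238 of 332 and 416 of 510. At 14 of the 18 CpGs both hSTAT5BN642H libraries were below both of WT.

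The CGI at chr11:96341938-96342320 covers the start of Gm11536, an antisense transcript inside Hoxb3. Over 6 CpGs, with 50 to 121 reads in all and thus 8.33 to 20.2 per CpG, it measured 100% and 86.2% in WT, 63.9% and 80.5% in hSTAT5B, and 42.6% and 53.5% in hSTAT5BN642H. Each genotype was separate from the others in both libraries. hSTAT5BN642H was 45.0 points below WT, and all 6 CpGs were lower without overlap. The log2 ratio differed by -4.14 ± 0.991 (SE), with an adjusted p of 0.847 in limma.

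2 CGIs lie over the coding part of Hoxb3. The first, chr11:96344154-96344429, has its 4 measured CpGs in the untranslated exon sequence just before the coding start, and measured 71.4% and 70.7% in WT, 71.6% and 76.2% in hSTAT5B, and 50.3% and 58.2% in hSTAT5BN642H. Here hSTAT5B lay with WT, and only hSTAT5BN642H was lower. These 4 CpGs are the same as those of the Hoxb3 promoter window, so the 2 are not separate results. The second, chr11:96345654-96346273, in the second coding exon, measured 53.5% and 81.0% in WT, 68.3% and 61.6% in hSTAT5B, and 62.0% and 41.7% in hSTAT5BN642H over 25 CpGs. WT spanned most of the range there, so the genotypes overlapped.

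Most CGIs outside Hoxb3 were low. That of the Hoxb8 first exon, chr11:96283007-96283401, measured 2.25% and 5.24% in WT, 11.9% and 0.476% in hSTAT5B, and 21.8% and 9.54% in hSTAT5BN642H over 4 CpGs. As a mean over CpGs hSTAT5BN642H was thus 11.9 points above WT without overlap. By reads the genotypes overlapped, with 11 of 138 and 6 of 143 methylated in WT and 13 of 148 and 6 of 145 in hSTAT5BN642H. The log2 ratio differed by 0.0571 ± 0.631 (SE), with an adjusted p of 0.997 in limma. The CGI at chr11:96203293-96203720, between Hoxb13 and Hoxb9, was 5.37 points above WT without overlap, at 8.61% and 12.4% beside 4.74% and 5.50%. In 8 others no library exceeded 8.48%, and the Hoxb2 CGI at chr11:96352945-96353489 among them was 3.13 points above WT without overlap. The 2 CGIs of Hoxb1 ranged from 6.99% to 19.9% in the first exon and from 16.4% to 33.3% in the second. In the first exon, over 4 CpGs, hSTAT5BN642H was 4.27 points and hSTAT5B 8.04 points above WT, both without overlap. Their adjusted p in limma was 0.923 and 0.831. The Hoxb1 promoter window, which overlaps this CGI and has 6 CpGs, went the other way. There hSTAT5BN642H was 1.60 points below WT without overlap, and hSTAT5B overlapped with WT. The CGI of the Hoxb5 second exon ranged from 22.2% to 37.6%, and that of the Hoxb4 second exon from 4.94% to 45.2%, where WT replicate 2 alone was lowest.

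Outside Hoxb3, the bin at chr11:96302001-96303000 lies between Hoxb6 and Hoxb5 and inside the antisense gene Hoxb5os. It measured 68.5% and 86.1% in WT, 84.5% and 73.7% in hSTAT5B, and 64.9% and 47.7% in hSTAT5BN642H over 9 CpGs. Between Hoxb7 and Hoxb6, the bin at chr11:96291001-96292000 measured 68.2% and 80.4%, 84.6% and 77.4%, and 57.7% and 64.7% in the same order. In both bins hSTAT5BN642H was below the other genotypes without overlap, and WT and hSTAT5B overlapped. In the lincRNA Gm53, the bin at chr11:96260001-96261000 measured 48.2% and 40.4%, 54.0% and 58.2%, and 36.7% and 41.6%, with hSTAT5B highest.

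Other named bins followed a different order. The bin at chr11:96333001-96334000, in the same Hoxb3 intron, measured 83.6% and 90.1% in WT, 60.6% and 69.6% in hSTAT5B, and 70.7% and 60.8% in hSTAT5BN642H, so both transgenic genotypes lay below WT and with each other. Over the second exon of Hoxb9, at chr11:96274001-96275000, the bin measured 58.4% and 63.6%, 52.8% and 33.3%, and 55.4% and 41.7%. At chr11:96320001-96321000, over the second exon of Hoxb4, it was 40.9% and 14.5%, 48.5% and 42.7%, and 31.0% and 37.1%. WT replicate 2 alone was low in that Hoxb4 bin. The bin at chr11:96196001-96197000 in Hoxb13, with 4 CpGs and as few as 27 reads in a library, ranged from 0% to 38.1% without any order by genotype.

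**Figure D4:**
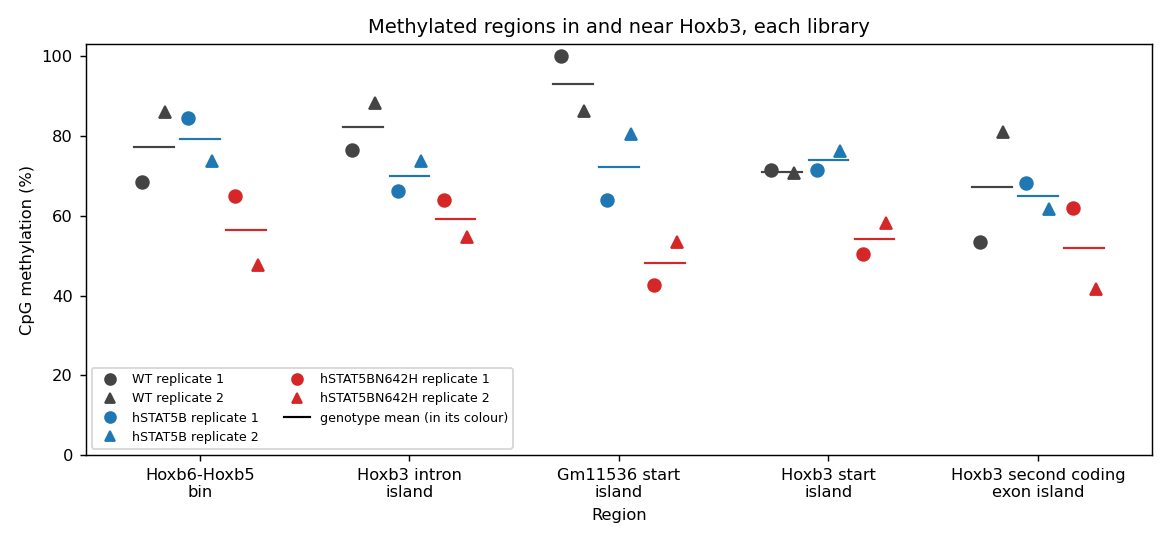
CpG methylation (%) of 5 methylated regions in and near Hoxb3, 1 marker per library, with a line at each genotype mean of 2 libraries. hSTAT5BN642H lies below both other genotypes without overlap in every region but the CGI of the second coding exon.

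An alternative quasi-binomial model, which weighs each library by its reads and uses dispersions moderated across the genome, made calls where limma made none. It counts reads at neighbouring CpGs as separate, although 1 fragment can cover several. In hSTAT5BN642H against WT it called 6 of 61 bins lower, against 0.827% of all bins, and 3 of 18 CGIs lower, against 0.552% of all CGIs. All of these but the Hoxb6-Hoxb5 bin lie in Hoxb3. Against hSTAT5B it called 4 bins lower, where 0.728% were called in the genome, and 3 CGIs lower, where 0.821% were. In hSTAT5B against WT it called 0 bins, where 0.201% were called, and 1 CGI higher, where 0.41% were.

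How far these calls depend on 1 library differed between regions. The adjusted p of the quasi-binomial model for hSTAT5BN642H against WT was 6.31e-11 for the Hoxb3 intron CGI and 1.48e-07 for the Gm11536 start CGI, and each stayed under 0.05 when any 1 library was left out, the highest value being 0.0147. For the CGI of the second coding exon of Hoxb3 it was 2.64e-09 and rose to 1.0 without WT replicate 2. For the Hoxb6-Hoxb5 bin it was 2.34e-10 and rose to 0.0995 without WT replicate 2. Without that library only the bin of the Gm11536 start was still called, of 6. The 1 CGI called in hSTAT5B, in the second exon of Hoxb4, had an adjusted p of 0.0467 and was called with 2 of the 6 libraries left out in turn. Its value was 0.995 without WT replicate 2, 0.994 without hSTAT5B replicate 1, and 0.0949 and 0.0841 without hSTAT5BN642H replicate 1 and 2.

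The promoter level of Cd8b1, which encodes a chain of the CD8 coreceptor, moved with genotype too. Over 6 CpGs it was 37.8% and 37.8% in WT, 18.8% and 17.5% in hSTAT5B, and 8.51% and 11.8% in hSTAT5BN642H. It was the only one of 14 marker promoters for CD8 T, CD4 T, B and myeloid cells with 3 or more CpGs, so the labelled cell type could not be checked further, and Cd79b, a B cell receptor chain with 1 CpG, measured 66.7% to 100% without an order by genotype. Its part in the HoxB result was not tested. In bulk DNA a change in the mixture of cells and a change within cells cannot be told apart.

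The letters TTCNNNGAA, a palindrome bound by STAT5, were searched on both strands, where they read the same. They occur in 14 of the 61 tested bins (23.0%), beside 27.2% of all 135303 tested bins. Both bins of the Hoxb3 intron CGI and the bin of the Gm11536 start held it, and the Hoxb6-Hoxb5 bin did not. Neither the Hoxb3 intron CGI nor the Gm11536 start CGI itself held a full match, so those of the bins lay outside the CGIs. This is a description of the sequence.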

How the data were processed

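RRBS libraries were made from MspI-digested DNA of CD8+ cells enriched with a magnetic kit. Per the study's methods and the submitters' processing notes, the authors trimmed reads with Trimmomatic and mapped them with BSMAP in RRBS mode to GRCm38. Versions are not given in the sources used here. The deposited files give per CpG the methylated and total read counts, used here, and the authors' score, which equals their ratio. Total reads per library were 43291086 to 67007186.

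The members and gene lists were chosen with earlier results of these data known. CpGs needed 5 reads in all libraries and units 3 CpGs. Levels were tested with limma 3.58.1 (R 4.3.3) on log2((methylated + 1)/(unmethylated + 1)) over all units of the genome in 1 fit of 6 libraries, adjusted by Benjamini-Hochberg at 0.05. A quasi-binomial model was the alternative. Both were tested on simulated data. Region means used exact permutation. Python 3.11.15, numpy 2.4.6, pandas 2.3.3 and matplotlib 3.10.9 were used, with GENCODE M21 genes. CGIs needed 200 bases, 50% GC and an observed/expected ratio of 0.6, which gave 16199. Bins named were those with the largest differences or range, and all 18 CGIs and 10 genes, the CGIs outside Hoxb3 mostly by their range. The labels number the libraries as replicates, so limma p-values measure the spread between these samples. Those of the quasi-binomial model depend on read totals as well, and the exact permutation p cannot fall below 0.333. Alternatives varied the read minimum, CpG minimum, offset, bin size, model and libraries.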

Additional observations from a re-analysis of the deposited data

How the results depend on the processing

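Over 15 alternatives, 132 fits of limma called 0 bins, CGIs or promoter windows, and the smallest adjusted p in the cluster was 0.511. With the replicate block the count stayed at 0 in all comparisons. Replicate numbers did not pair the libraries, since the deviations of same-numbered libraries correlated at 0.00268, 0.00378 and 0.0046. The quasi-binomial model called 6 bins and 3 CGIs in hSTAT5BN642H against WT, 4 bins and 3 CGIs against hSTAT5B, and 1 CGI in hSTAT5B against WT. The cause was not tested. Leaving out 1 library, in limma and, as an alternative chosen after seeing the data, in the quasi-binomial model, gave 0 to 7 bins and 0 to 4 CGIs in hSTAT5BN642H against WT, 0 to 4 and 0 to 2 against hSTAT5B, where any 1 library left out lost at least 1 of the 3 CGI calls, and 0 to 1 and 0 to 2 in hSTAT5B against WT.

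Under other read minimums, weights and without repeats, 36 of 45 values of the region means moved by less than 1 SD between replicates. Leaving out 1 of 2 libraries cannot exceed that SD and is not counted. With reads pooled over CpGs, hSTAT5B minus WT was -0.316 points in the cluster, -0.116 between Hoxb13 and Hoxb9, where the sign changed, and -0.500 from Hoxb9 to Hoxb1, and hSTAT5BN642H minus WT between Hoxb13 and Hoxb9 was -2.08. That difference, -0.491 with all libraries, was positive with every bin weighted equally (0.169) and without WT replicate 1 (0.186) or hSTAT5BN642H replicate 2 (0.426). With every bin weighted equally, hSTAT5B minus WT was 2.61 in that interval and -2.55 from Hoxb9 to Hoxb1, where hSTAT5BN642H minus WT was -5.37. With 1 read or more per CpG, hSTAT5BN642H minus hSTAT5B was -0.880 and -3.44. The cause was not tested. Under other read minimums and pooling, 61 of 315 values of the named bins, CGIs and windows moved by over 1 SD and 25 changed sign. With 2 libraries per genotype and 8.33 reads per CpG in the shallowest library of the Gm11536 start CGI, small differences were not detectable. Larger ones were not called by limma either: in that CGI hSTAT5BN642H was 45.0 points below WT at an adjusted p of 0.847 in limma. The absence of limma calls therefore does not show equal levels.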

Other observations

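Promoter windows of genes that act with or on the Hox genes were mostly low. Among TALE cofactors, the homeodomain partners of HOX proteins, 9 of 9 listed windows were measured, 0 were called by limma, and all averaged under 20% (highest Pknox2, 10.6%), with Pbx4 ranging from 0.258% to 10.7% between libraries. Their median difference of hSTAT5BN642H from WT was 0.154 points, beside 0.141 over all promoter windows. Of the Polycomb genes, 14 of 15 were measured, 0 were called by limma, and none averaged above 4.65%, with a median difference of 0.140. Of the trithorax and CDX regulators, 6 of 7 were measured and 0 were called by limma, with a median of -0.647. Cdx1, an activator of Hox genes, was the one window of these lists above 20%, at 28.3% and 37.4% in WT, 34.7% and 30.6% in hSTAT5B, and 26.7% and 30.2% in hSTAT5BN642H, and the genotypes overlapped. Cdx2, of the same family, measured 9.14% and 12.7% in WT, 3.46% and 4.17% in hSTAT5B, and 7.57% and 2.21% in hSTAT5BN642H, both transgenic genotypes below WT without overlap.

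Promoter windows of the other Hox clusters were also mostly low. 10 of 11 HoxA windows were measured, 7 of 9 of HoxC and 9 of 9 of HoxD, and limma called 0. The HoxA windows held Hoxa5 at 89.0% and 92.2% in WT, 91.5% and 92.7% in hSTAT5B, and 86.3% and 80.6% in hSTAT5BN642H, and Hoxa9 at 52.9% to 66.5%. Hoxa5 was lowest in both hSTAT5BN642H libraries, without overlap. Other windows went the other way, among them Hoxc11, Hoxc10 and Hoxd11, which were highest in both hSTAT5BN642H libraries without overlap. By its mean hSTAT5BN642H was below WT in 2 HoxA windows and above it in 8. It was below in 3 and above in 4 of HoxC, and below in 4 and above in 5 of HoxD. The median difference from WT was 1.27 points in HoxA, 2.20 in HoxC, 0.458 in HoxD and -0.659 over the 7 HoxB windows. Inside the HoxB window, the Mir196a-1 promoter, of a microRNA gene that targets Hoxb8, measured 44.1% and 48.6% in WT, 48.3% and 40.8% in hSTAT5B, and 34.5% and 33.7% in hSTAT5BN642H over 4 CpGs. Its hSTAT5BN642H libraries were below all others.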
